A study of Mus musculus with 2 samples.

Results

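HIRA peaks that lie in introns on repeated sequence were described. HIRA, a chaperone of histones, deposits the variant H3.3 into nucleosomes outside DNA replication, and the study asked where it binds in the developing mouse heart. The data are 1 list of peaks from 1 ChIP library of 30 pooled wild type (WT) CD1 hearts at E12.5, precipitated with the WC15 antibody after cross-linking with 1.5 mM EGS and formaldehyde, and called against 1 input library of like hearts. The hearts carried no engineered allele and received no treatment, the pool held all cell types of the heart, and the list gives positions without heights, so there is no replicate and no depth behind a single peak.

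A peak was taken when its midpoint lay in a gene body of GENCODE M21, in no exon and over 1 kb from any transcript start, and when 50% or more of its bases were soft-masked, which is how the assembly marks repeats. Peaks with an exact run of 4 GA or 4 CA dinucleotides, or with 24 or more bases of exact period 3 to 6, were left out. Of 6624 peaks, 2400 were intronic and 1376 of these were 50% or more soft-masked. The GA or CA run removed 347 and the period of 3 to 6 a further 268, in 31 of which the run has a unit of 1 or 2 bases. This left 761 peaks, called the intronic repeat peaks here. The threshold cut through few peaks, since 657 of the 761 were 100% soft-masked. The 5 peaks just inside it were 50.7 to 51.5% masked and the 5 just outside 47.3 to 49.1%.

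Most of the repeated sequence in mammalian introns comes from transposable elements. LINE-1 elements copy themselves through RNA and carry a pair of open reading frames followed by a 3′ untranslated stretch, and most copies in the mouse genome are old or cut short at the 5′ end. B1 elements are short and do not code for protein, and satellite DNA consists of units that follow each other head to tail near centromeres. H3.3 is placed on repeats in several cell types, in part by chaperones other than HIRA.

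Soft-masking does not name repeat families, and no annotation of families was used for the grouping, so the intronic repeat peaks were sorted by their own letters. Peaks that aligned to each other at 80% identity or more over 50% or more of the shorter peak were linked, and linked peaks formed a group. In this way 668 of 761 peaks (87.8%, 95% Wilson interval 85.3 to 89.9%) were linked to at least 1 other and 93 were not. The 40 groups were of very unequal size. Group 1 held 350 peaks on all 21 chromosomes and in 327 host genes, group 2 held 83, group 3 held 63, group 4 held 30, group 5 held 18 and group 6 held 17, which is 561 peaks (73.7%) in all.

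The 6 sequences that follow stand for these groups, because each belongs to the peak that aligned to most others of its group. They are mm10 plus strand, 5′ to 3′, cut to at most 200 bases. Capitals mark the 32-base word of the stretch that occurs most often in the genome on either strand, from 4079 times in the sequence of group 6 to 26614 times in that of group 5.
Group 1, Gm20125, chr10:17002200-17002399: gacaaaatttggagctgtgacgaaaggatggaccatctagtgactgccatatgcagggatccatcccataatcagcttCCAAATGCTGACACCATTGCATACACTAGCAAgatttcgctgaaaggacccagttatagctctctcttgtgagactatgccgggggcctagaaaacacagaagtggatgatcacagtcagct
Group 2, Gm26939, chr3:64636995-64637194: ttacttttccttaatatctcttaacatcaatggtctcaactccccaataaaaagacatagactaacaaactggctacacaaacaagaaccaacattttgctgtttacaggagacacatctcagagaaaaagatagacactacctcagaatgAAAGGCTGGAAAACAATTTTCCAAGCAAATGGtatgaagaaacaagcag
Group 3, Trip11, chr12:101849127-101849326: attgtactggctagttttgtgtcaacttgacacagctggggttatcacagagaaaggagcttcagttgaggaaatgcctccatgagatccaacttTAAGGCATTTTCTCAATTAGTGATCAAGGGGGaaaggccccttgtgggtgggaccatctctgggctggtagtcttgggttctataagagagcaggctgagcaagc
Group 4, Grm7, chr6:111418020-111418219: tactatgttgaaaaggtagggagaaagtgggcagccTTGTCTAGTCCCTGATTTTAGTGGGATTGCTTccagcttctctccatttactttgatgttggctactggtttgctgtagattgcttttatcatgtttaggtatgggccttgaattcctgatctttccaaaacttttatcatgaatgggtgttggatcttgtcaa
Group 5, Il34, chr8:110781521-110781693: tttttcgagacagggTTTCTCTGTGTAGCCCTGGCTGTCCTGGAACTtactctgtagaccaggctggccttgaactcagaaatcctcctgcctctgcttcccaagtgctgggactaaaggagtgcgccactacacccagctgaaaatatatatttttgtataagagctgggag
Group 6, Vmn2r-ps34, chr6:124132334-124132533: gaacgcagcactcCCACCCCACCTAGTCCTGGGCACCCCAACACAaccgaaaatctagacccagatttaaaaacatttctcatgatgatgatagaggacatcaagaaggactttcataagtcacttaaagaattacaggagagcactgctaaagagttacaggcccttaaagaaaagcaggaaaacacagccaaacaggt

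The representatives of groups 1, 2, 4 and 6 were parts of 1 longer element. They had 68685, 25133, 29320 and 10002 copies in the genome at 80% identity or more over 60% of the query. Of the copies of group 2, 79.2% lay within 7 kb of a copy of group 1, as did 79.4% of the copies of group 4 and 88.0% of those of group 6. By contrast, 29.1% of the copies of group 3 and 15.8% of those of group 5 lay that close to group 1. In 3847 places the 4 sequences stood together beside a pair of long open frames. Copies with the frame lengths seen most often among these, 357 codons followed by 1281 codons, were ranked by summed alignment score to the 4 representatives. The copy taken as reference was chosen by this rank, and so by its match to peak sequences. It lies on the minus strand of chromosome 3 from 22514845 to 22520586 and is 5742 bases long from the first codon of the first frame, which ends at position 1074. The second frame runs from 1157 to 5002 and is followed by a 3′ end of 740 bases. The end of the first frame resembled L1td1, a mouse gene that derives from the first frame of a LINE-1, with 38.6% identity over 127 amino acids. The element is called LINE-1 here on these grounds. Sequence that lies before the first frame is not in the reference, so a peak there would count as not aligned.

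In all, 480 of the 761 intronic repeat peaks (63.1%, interval 59.6 to 66.4%) aligned to this LINE-1 copy. They lay in 438 host genes, and only 2 of them had another aligned peak within 7 kb, so that nearly every aligned peak was on a copy of its own. Of these 480 peaks, 474 were in groups 1, 2, 4 and 6. All peaks of groups 1, 2 and 4 aligned to the copy, but in group 6 only 11 of 17 did. The background was taken from all introns, cut into windows of the median peak width. Of 5485506 windows, 1043621 (19.0%) met the same rule as the peaks, and every 20th of those (52181) was aligned in the same way. Among them 18937 aligned to the LINE-1 copy, a background of 36.3%. The peaks exceeded the windows by 26.8 percentage points (95% Newcombe interval of the difference 23.3 to 30.2) or 1.74 times. These intervals cover counting error within 1 list and say nothing of variation between hearts. The copy was chosen by its match to peak sequences, and how much this adds to the excess was not tested. The size of the excess depended on the simple repeats that the rule leaves out. With these kept in peaks and in windows alike, 488 of 1376 peaks (35.5%) and 29.7% of windows aligned, a difference of 5.78 points (3.28 to 8.37).

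The same element was found in intergenic peaks. Of 1825 intergenic peaks chosen by the same repeat rule, 1165 (63.8%, interval 61.6 to 66.0%) aligned to the copy. The intronic share minus this share was -0.761 points, with an interval from -4.87 to 3.27. Windows were taken from introns alone, so the intergenic peaks have no background of their own.

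Other sequence kinds were fewer. Group 3, with Trip11 (a Golgi protein gene) as host of its representative, held 63 intronic repeat peaks (8.28%, interval 6.52 to 10.5%). Of the windows 1.84%, and of the intergenic peaks 5.04%, linked to a peak of this group and aligned to neither LINE-1 nor B1. The group was drawn from the intronic repeat peaks themselves. A higher share in them was thus partly fixed in advance, and no difference is given. Its peaks had a median GC content of 50.9% and lay in soft-masked runs with a median length of 453 bases. They came from 19 chromosomes and from 63 different host genes. No sequence in the reference files names this element and it is left without a name. B1 sequence was less frequent in the peaks than in the windows. Group 5 resembled B1_Mus2, a B1 element of 138 bases in the RefSeq annotation (chromosome 7, 103823699 to 103823836). In all 16 intronic repeat peaks (2.10%, interval 1.30 to 3.39%) aligned to B1, against 8.57% of the windows, a difference of -6.47 points (-7.31 to -5.16). The intergenic peaks had 1.15%, and the intronic share minus this was 0.952 points (-0.0528 to 2.30). A further 112 peaks were linked to other peaks but were in none of these kinds, among them 6 of group 6 and 5 of group 5. The 93 peaks with no link were 3 of the B1 peaks and 90 others.

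**Figure D1:**
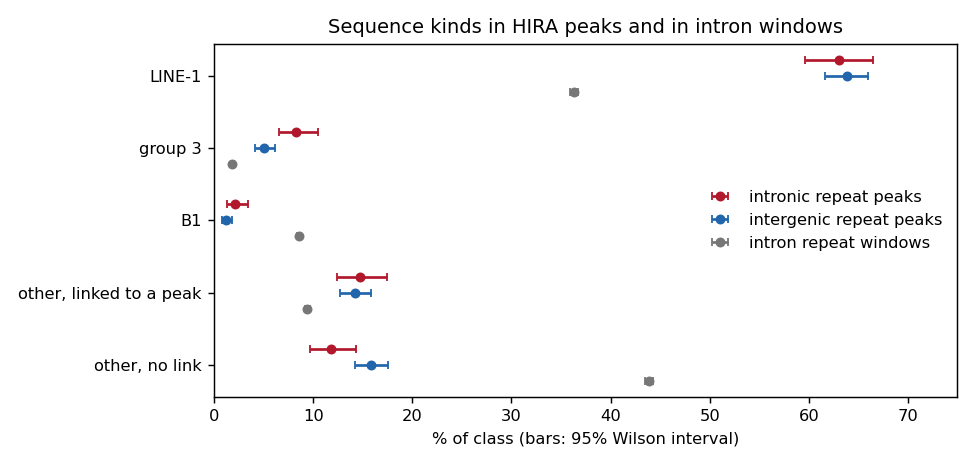
Share of each sequence kind (horizontal axis, percent of the class) among 761 intronic repeat peaks, 1825 intergenic repeat peaks and 52181 intron windows that met the same rule. Points are shares and bars are 95% Wilson intervals, which cover counting error only. Links are to intronic repeat peaks alone in every class, so the shares of group 3 and of both other kinds partly follow from this choice. LINE-1 made up 63.1% of the intronic repeat peaks and 36.3% of the windows, while B1 made up 2.10% and 8.57%.

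The intronic repeat peaks were not spread evenly along the LINE-1 copy, which starts at the first frame. Of the 480 aligned peaks, 257 (53.5%, interval 49.1 to 58.0%) had the midpoint of the alignment in the 3′ end, after the second frame, although this stretch is 740 of 5742 bases. Another 33 peaks were in the first frame, 2 were between the frames, and 50, 51 and 87 were in 3 successive equal parts of the second frame. The aligned windows had 28.4% in the 3′ end (27.8 to 29.0%). This is less than the peaks by 25.1 points (20.6 to 29.6). The intergenic peaks had 41.4%, which is less by 12.2 points (6.86 to 17.4). The share of the 3′ end in intergenic LINE-1 sequence was not measured.

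At the summit, position 5457 of the copy, 168 intronic repeat peaks overlapped. That is 22.1% of all 761, and 16.8 times the median cover of the second frame, where 10 peaks overlapped. The stretch covered by at least 50% of this number ran from 5237 to 5552. The windows reached 3.37% of their class at position 5544, or 4.05 times their own median over the second frame. In the intergenic peaks the summit was at position 5352, with 294 peaks or 16.1% of the class.

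The bases at the summit are shown because more intronic repeat peaks cover them than any others. The first line is the reference copy from position 5357 to 5556, read along the element (minus strand of chromosome 3), with the 20 bases from 5447 to 5466 around the summit in capitals. The second line is a whole peak of 163 bases in intron 6 of 22 of Dpy19l1, a gene for a protein mannosyltransferase. It matched the copy at 100% identity from position 5393 to 5555, and its capitals mark its commonest 32-base word, which occurs 29114 times in the genome.
LINE-1 copy, chr3:22515031-22515230: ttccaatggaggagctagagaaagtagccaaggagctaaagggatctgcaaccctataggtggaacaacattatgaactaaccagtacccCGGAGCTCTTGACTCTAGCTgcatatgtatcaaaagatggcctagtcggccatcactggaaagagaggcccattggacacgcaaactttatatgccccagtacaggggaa
Dpy19l1, chr9:24474771-24474933: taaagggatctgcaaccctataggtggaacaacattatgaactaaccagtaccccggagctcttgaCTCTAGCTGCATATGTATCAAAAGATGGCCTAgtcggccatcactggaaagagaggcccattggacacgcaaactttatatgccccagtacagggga

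**Figure D2:**
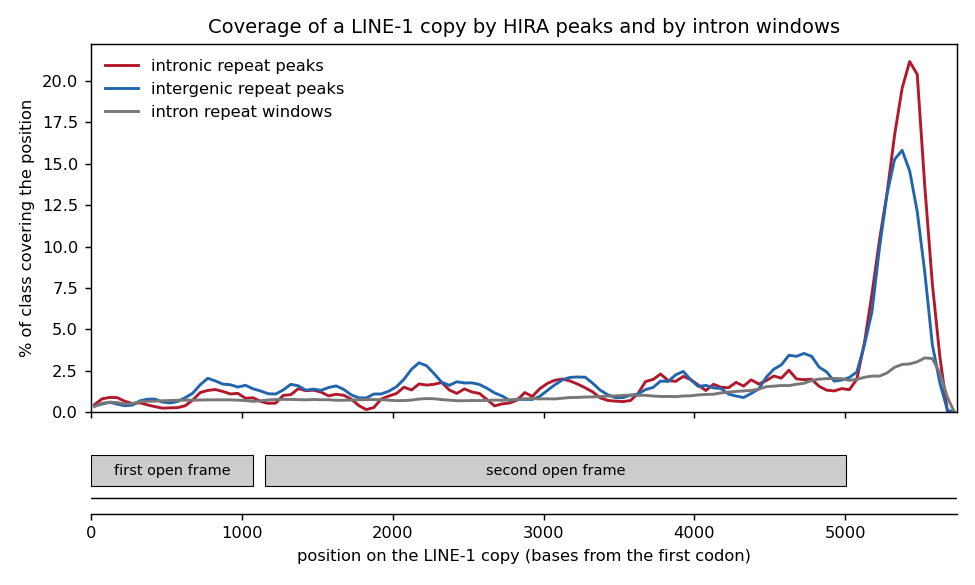
Share of each class (vertical axis, percent of all peaks or windows of the class) that covers each position of the LINE-1 copy (horizontal axis, bases from the first codon, means over steps of 50 bases), with the 2 open frames drawn below. Intronic and intergenic repeat peaks rise to 22.1% and 16.1% at their highest single position in the 3′ end, and the windows to 3.37%.

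The 3′ end differs from the frames in base composition. Its GC content in the copy is 45.4%, that of the 200 bases around the summit 48.0%, and that of the frames 38.4%. Peaks there had a median GC of 48.7% (interval 48.4 to 48.99%) and peaks in the frames 39.4% (38.8 to 39.9%). Aligned windows had medians of 47.0% and 37.3%. When peaks and windows were restricted to a GC of 45 to 50%, 184 of 252 peaks (73.0%) and 26.2% of windows aligned to LINE-1, a difference of 46.9 points (41.0 to 52.03). Of these, 92.4% of peaks and 79.7% of windows were in the 3′ end, a difference of 12.6 points (7.69 to 16.01). Base composition moved with the place on the element, and how much of the summit goes with it was not tested.

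**Figure D3:**
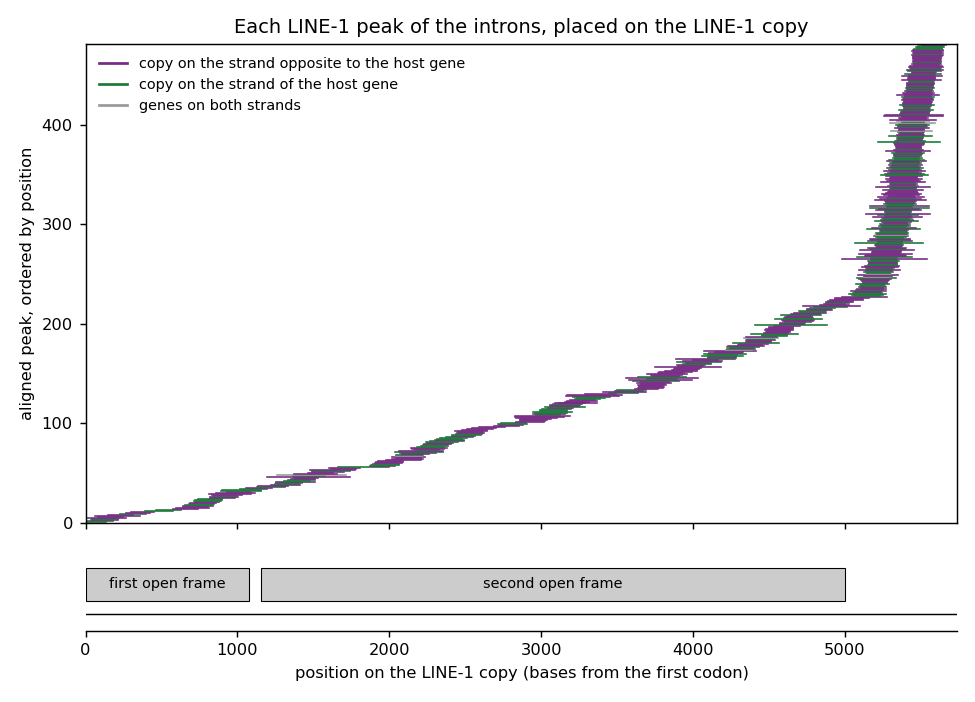
The 480 intronic repeat peaks that aligned to LINE-1, each drawn as a line over the positions it matched on the copy (horizontal axis, bases from the first codon) and stacked in order of position (vertical axis, rank). Colours give the strand of the copy relative to the host gene. The steep part at the right holds the 257 peaks of the 3′ end, and both strands occur along the whole element.

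Peaks aligned to the reference at high identity, but the reference was itself chosen by its match to peak sequences. How much this choice adds to the identity of the peaks was not tested. Median identity to the copy was 95.1% (interval 94.7 to 95.6%, quartiles 92.2 and 97.3%) in the peaks and 90.2% (89.9 to 90.3%, quartiles 83.1 and 95.1%) in the windows. Identity of 95% or more was found in 247 of 480 peaks (51.5%, 47.0 to 55.9%) and in 26.5% of the windows (25.8 to 27.1%). Only 12 peaks were below 85%, while 7 were at 100%. The intergenic peaks had a median of 94.9%. The peaks of the 3′ end had a median of 95.4% and those of the frames 94.9%, with intervals that overlapped. Among sequences of 95% identity or more, 137 of 247 peaks (55.5%) and 24.7% of windows were in the 3′ end, a difference of 30.8 points (24.4 to 36.9).

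**Figure D4:**
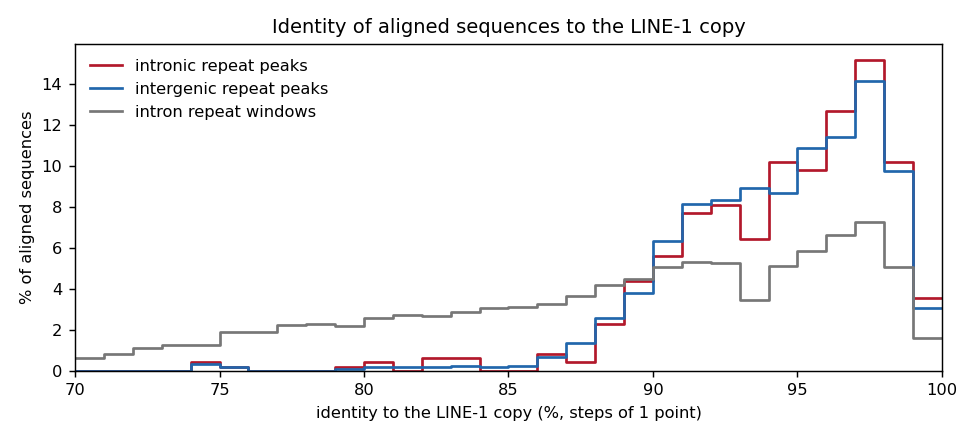
Identity to the LINE-1 copy (horizontal axis, percent in steps of 1 point) of the aligned intronic repeat peaks, intergenic repeat peaks and intron windows (vertical axis, percent of the aligned sequences of each class). Both peak classes have medians of 94.9 to 95.1%, and the windows have a median of 90.2% and a long tail to lower identity.

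Copies of short words were then counted. A 32-base word was called multi-copy when it occurred more than once in the genome on either strand. At least 1 such word was present in 750 of 761 intronic repeat peaks, and in 483 (63.5%, interval 59.99 to 66.8%) every word was multi-copy. This was so for 18.9% of the windows, a difference of 44.5 points (41.0 to 47.9), and for 15.5% of the intronic peaks under 50% masked. The intergenic repeat peaks had a higher share, 68.2%, and the intronic share minus this was -4.75 points (-8.81 to -0.761). Within LINE-1 it was 336 of 480 peaks and 33.8% of windows, a difference of 36.2 points (31.9 to 40.2). The median word of a LINE-1 peak had 3292 copies (interval 2704 to 3911) and that of a LINE-1 window 52 (46.5 to 57). The highest median word copies belonged to peaks in intron 10 of 10 of Spag16, a sperm axoneme gene, in intron 2 of 4 of Gm34664, and in Dpy19l1 (20602, 19919 and 19916 copies). All 3 were on LINE-1, at positions 4748 to 4914, 5328 to 5528 and 5393 to 5555.

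Reads that hold only such words can align to more than 1 place equally well, although a read pair longer than 32 bases may still have a single best place. No reads were examined, and the sources used here do not say how reads with more than 1 place were treated. A peak on a LINE-1 copy may therefore hold reads of other copies. Peaks that contain at least 1 single-copy word were compared on their own. Most words of such a peak can still be multi-copy, so this does not set apart reads with a single place. Of 278 such peaks 144 (51.8%, interval 45.9 to 57.6%) aligned to LINE-1, against 29.6% of like windows, a difference of 22.2 points (16.3 to 28.0). Of these 144 peaks 77 (53.5%) were in the 3′ end, against 31.6% of windows, a difference of 21.9 points (13.7 to 29.9).

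The strand of LINE-1 relative to its host gene was compared next. Of 470 aligned peaks in genes of 1 strand only, 296 (63.0%, interval 58.5 to 67.2%) had the element on the opposite strand and 174 on the strand of the gene. The windows had 64.8% on the opposite strand, and the difference was -1.78 points (-6.29 to 2.52). In the 3′ end the shares were 62.2% and 60.9%. The length of the masked sequence around the peaks was compared in the same way. A soft-masked run of 5 kb or more surrounded 92 of 480 LINE-1 peaks (19.2%, 15.9 to 22.9%) and 22.4% of LINE-1 windows (21.8 to 22.95%).

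Among the smaller groups, group 7 was satellite-like. Its 7 peaks were on chromosomes 9 and 14, and 5 of them lay between 3002078 and 3011073 on chromosome 9. In the sequence around these 5 the letters recurred at a spacing of 234 bases, where 56.6 to 75.8% of the bases were equal to those 1 unit further on. Gamma satellite, the main satellite of mouse pericentromeric DNA, has units of this kind. The other 2 peaks, in Gm21738 on chromosome 14 and Gm33838 on chromosome 9, showed their best spacing at 351 and 58 bases. The peak in Gm10722 is shown as an example of the repeated unit, with its commonest 32-base word in capitals (94 copies).
Group 7, Gm10722, chr9:3002078-3002255: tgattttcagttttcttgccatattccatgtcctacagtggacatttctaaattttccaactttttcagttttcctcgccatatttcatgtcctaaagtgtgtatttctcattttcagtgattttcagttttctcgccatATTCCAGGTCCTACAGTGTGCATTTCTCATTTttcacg

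Groups 8, 9, 11 and 12 held 5 or 6 peaks each on 5 or 6 chromosomes, and the peaks of a group had median identities of 98.3 to 99.6% to each other. In group 10, with 6 peaks, the median was 85.9%. Of the peaks of these 5 groups 0 aligned to the LINE-1 copy, which lacks the sequence before the first frame, or to B1. The groups were not named.

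The widths of the intronic repeat peaks had a median of 186 bases (interval 183 to 189) and quartiles of 170 and 218, and the median of the intronic peaks under 50% masked was 186 bases as well. Among the widest were peaks in Fam91a1, a gene for a membrane trafficking protein (600 bases, intron 15 of 23), Gm38642 (577), Gm12023 (561) and Gm26870 (553). Of these only the Gm12023 peak was on LINE-1, at positions 4979 to 5539 with 97.9% identity. The Gm26870 peak was in group 7. The GC content over all 761 had a median of 47.2% (46.6 to 47.6%), against 42.2% in the windows and 45.1% in the intergenic peaks (44.4 to 45.7%).

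Short motifs were counted as well. A run of 10 A or 10 T was in 35 peaks (4.60%, interval 3.33 to 6.33%) and in 6.94% of all windows that met the rule. The run was in 3 of 480 LINE-1 peaks and in 32 of the other 281. The letters TCAAGTG or TTAAGTG on either strand, the core bound by NKX2-5, were in 31 peaks (4.07%, 2.88 to 5.72%) and in 4.39% of the windows. The letters GAGAGA on either strand, shorter than the run that the rule removes, were in 79 peaks (10.4%, 8.41 to 12.8%) and in 13.7% of the windows.

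The peaks lay deep in introns. Median distance to the nearest exon was 5704 bases (interval 4891 to 6419), against 4496 (4420 to 4569) for the windows and 3196 (2653 to 3994) for intronic peaks under 50% masked. The LINE-1 peaks had a median of 7573 bases (6894 to 8903) and the LINE-1 windows 7070 (6935 to 7262). The other 281 peaks had a median of 2894 (2397 to 3667), and windows not on LINE-1 had 3194. An intron number could be given for 658 peaks, of which 174 (26.4%, 23.2 to 29.9%) were in the first intron. The windows had 28.2%, and the difference was -1.79 points (-5.04 to 1.74). The 5 peaks nearest to an exon touched one, with the midpoint outside it. They were in Idh2, the gene of mitochondrial isocitrate dehydrogenase, in Gm10722 and Gm11168 of group 7, and in Gm28130 and Gm29275 on the Y chromosome.

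Another peak of any class lay within 10 kb of 54 of the 761 peaks (7.10%, interval 5.48 to 9.14%). The share was 9.59% in the intergenic repeat peaks and 9.96% in the intronic peaks under 50% masked. Among the 54 were 16 of the 480 LINE-1 peaks (3.33%) and 38 of the other 281 (13.5%), a difference of -10.2 points (-14.9 to -6.14). The other 281 include the peaks of group 7 that lie close together on chromosome 9. Per Mb of intron windows that met the rule there were 3.94 peaks, with a range over chromosomes from 1.84 on Y, where 8 peaks lay, and 2.44 on chromosome 4 to 5.66 on chromosome 15.

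The 761 peaks had 679 host genes, the longest protein-coding gene over the midpoint being taken where genes overlap. Of these 614 held 1 peak, 51 held 2, 11 held 3 and 3 held 4 or more. Protein-coding hosts took 624 peaks (82.0%). Of 20620 protein-coding genes with an intron, 568 (2.75%) held a peak in their body. This share rose with intronic length, from 0.170% of genes under 10 kb of intron (14 of 8227) to 1.23% (97 of 7858), 5.86% (210 of 3584) and 26.0% (247 of 951) of genes with 200 kb or more. The median intronic length was 157 kb in genes with a peak and 15.3 kb in all.

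**Figure D5:**
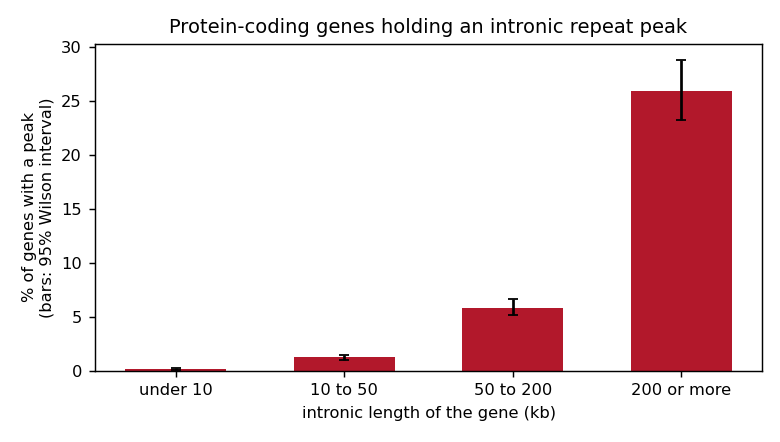
Share of protein-coding genes that hold at least 1 intronic repeat peak (vertical axis, percent) by the summed intronic length of the gene (horizontal axis, kb). Bars are shares and error bars 95% Wilson intervals, and the share runs from 0.170% under 10 kb to 26.0% at 200 kb or more.

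The genes with 4 peaks were Lrp1b, Pcdh15 and Gm20388. Lrp1b, a receptor of the LDL receptor family, held 2 LINE-1 peaks, 1 at position 3061 to 3255 (90.3% identity) in intron 32 of 90 and 1 at 5442 to 5648 (95.7%) in intron 1, both with the element opposite to the gene. Its other peaks, in introns 32 and 7, were in groups of 2 and 3 members. Pcdh15, a cadherin of hair cell stereocilia, held LINE-1 peaks at 4799 to 5014 (92.6%) and 4935 to 5157 (98.2%), the latter in intron 3 of 34. The annotated first intron of Gm20388 spans 4384418 bases and passes over other genes, so its 4 peaks share only this model.

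Gene lists of the heart and of the chaperone were then read against the 2.75% of all protein-coding genes. Over all lists 18 of 268 genes with an intron (6.72%, interval 4.29 to 10.4%) held a peak. The median intronic length of these 268 genes was 48.8 kb, against 15.3 kb in all protein-coding genes with an intron. The lists are short, and no difference from other genes of like length was tested.

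Sarcomere and Z-disc genes held a peak in 4 of 50 (8.00%, interval 3.15 to 18.8%). Dmd, the gene of dystrophin, held 1 in intron 34 of 78 at LINE-1 position 2479 to 2642 (96.3% identity). Nebl, which encodes the Z-disc protein nebulette, held 1 in intron 26 of 27 at 4649 to 4835 (92.5%). Palld, the gene of the actin binding palladin, held 1 in intron 1 of 21 at 2044 to 2219 (90.9%). Sgcd, the gene of delta-sarcoglycan, held 3 over 1084 kb of intron, 2 of them on LINE-1 at 4071 to 4350 (95.4%) and 5346 to 5513 (97.6%) and the third in group 9.

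Ion channel and calcium handling genes held a peak in 3 of 47 (6.38%, 2.19 to 17.2%), all on LINE-1. Cacna1c, the pore subunit of the cardiac L-type calcium channel, held 1 in intron 3 of 46 at 5292 to 5509 (97.2%), and Kcnd3, a potassium channel gene, held 1 in intron 2 of 6 at 3816 to 4027 (98.1%). Trdn, the gene of triadin in the sarcoplasmic reticulum, held 1 in intron 13 of 37 at 720 to 897 (94.9%). Of the cardiac transcription factors 1 of 47 held a peak (2.13%, 0.377 to 11.1%). It was Zfpm2, the GATA4 cofactor FOG2, with a peak in intron 3 of 7 at 5308 to 5487 (88.5%).

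Eph, ephrin and guidance genes had the highest count, 6 of 45 (13.3%, 6.26 to 26.2%), and also the longest introns of the 6 lists, with a median of 144 kb. The axon guidance receptor genes Robo2 (intron 2 of 27, 5325 to 5503, 97.2%) and Unc5d (intron 1 of 17, 1132 to 1311, 93.3%) held LINE-1 peaks, as did Epha5 (intron 2 of 15, 5221 to 5630, 96.3%) and Sema6d (5276 to 5463, 97.3%). The peak of Ephb1, in intron 1 of 15, was in a group of 2, and that of Dcc, the netrin receptor gene, had no link. Epha3 is an ephrin receptor gene that the study examined. It held 0 of the peaks described here, since 1 of its 2 intronic peaks carries a GA or CA run and the other a repeat of period 3.

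Cushion and septum signalling genes held a peak in 3 of 53 (5.66%, 1.94 to 15.4%). Erbb4, the neuregulin receptor, had 2 LINE-1 peaks at 2411 to 2568 (97.5%) in intron 2 of 26 and at 5387 to 5572 (96.8%) in intron 1. Smad4, the shared mediator of TGF-beta and BMP signals, had 1 in intron 1 of 11 at 1335 to 1508 (92.0%). The Fgfr2 peak, in B1 sequence, is outside the introns of the transcript with the most exon bases, in a gene model with 2951 kb of intron. In the list drawn up for HIRA, H3.3 chaperones and partners 1 of 26 genes held a peak (3.85%, 0.682 to 18.9%). It was Nsd1, a histone H3 lysine methyltransferase gene, with a peak in intron 9 of 22 in group 10. The study reported an interaction of HIRA with WHSC1, another histone methyltransferase, and its text does not name Nsd1.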

How the data were processed

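The authors deposited 1 list of peak positions (chromosome, start and end, counted from 0) for the HIRA ChIP library, and no score, height or p-value was in it. Per the study's methods reads were aligned to mm10 with Bowtie2 and peaks called with MACS in Strand NGS, and per the file headers the control was the input sample. The p-value cutoff in the file header is less strict than that in the methods, and the treatment of multi-mapping reads is not given in the sources used here. The input library has no file and was not analysed here, so depth is unknown. The hearts were CD1 and the assembly (GRCm38.p6, which is mm10) is of another strain, so single LINE-1 copies may differ.

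Positions were classed with GENCODE M21. Intron numbers refer to the transcript with the greatest exon length. The 32-base words were counted on both strands of the 21 chromosomes. Alignments used blastn 2.17.0 and Python 3.11.15. Shares carry Wilson and differences Newcombe 95% intervals, medians order-statistic intervals, all for counting error only. Peaks are not replicates, and windows of 1 element share their source, so no test was run. The code was tested on simulated data.

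The peaks, lists and comparisons were chosen with earlier results of these data known. Named are the host of each list gene's peak, genes with 4 or more peaks, hosts of the 5 widest peaks (1 of them is not reported here), of the 5 nearest to an exon, of the 6 representatives and of the 3 with the most word copies, and Epha3. Dpy19l1 and Gm10722 sequences and groups 7 to 12 were picked after their values were seen.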

Additional observations from a re-analysis of the deposited data

How the results depend on the processing

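There is 1 ChIP library, so nothing can be said of variation between immunoprecipitations, and the depth is unknown. No paired analysis was possible because the ChIP was made once. Of 112 alternative values for 13 results, 84 stayed within the 95% interval of the value reported (for counts, within 1.5 times) and 28 did not. Those on LINE-1 were chosen after the data were seen. With the GA, CA and period repeats kept there were 1376 peaks in 1171 genes, with a median GC of 46.0%, exon distance of 4759 bases and masked run of 416.5 bases. Of these 37.8% had only multi-copy words, 78.5% were linked, 6.83% had a run of A or T and 35.5% aligned to LINE-1. With peaks wider than the median of the list there were 388 in 357 genes, 217 bases wide at the median. At 75% or more soft-masked bases 91.9% were linked, 3.06% had the run and 66.7% aligned to LINE-1. The first intron held 23.1% with RefSeq genes and 22.0% with protein-coding genes alone, where the exon distance was 6426 bases. Merging peaks within 1 kb left 5.32% with a neighbour, while distances of 5 and 20 kb gave 4.47 and 10.9%. Words of 24 and 50 bases gave 70.3 and 53.9% of peaks with only multi-copy words. Linking at 90% identity over 80% gave 81.1%, and runs of 15 gave 3.15%. The LINE-1 share was 51.8% among peaks with a single-copy word and 73.0% at 45 to 50% GC, where 92.4% of aligned peaks were in the 3′ end. With 3 other LINE-1 copies, or alignments over 80% of the peak, the LINE-1 share and the 3′ end share stayed within their intervals. The 3 copies came from the same ranking as the reference and have the same frame lengths. They therefore cannot show how the shares depend on the choice of reference. Changes of the word, the link, the distance, the run, the LINE-1 copy or the alignment cover apply a changed measure to the same 761 peaks. The other alternatives take fewer or other peaks. No further cause was tested.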
